A study of Mus musculus with 6 samples.

Results

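Genes that move glucose and lactate across membranes or carry out the first and last steps of glycolysis were followed in retinas of mice without photoreceptor cadherin. The 10 members were the lactate transporter genes Slc16a1 and Slc16a3, their accessory subunit gene Bsg, the glucose transporter genes Slc2a1 and Slc2a3, the hexokinase genes Hk1 and Hk2, the lactate dehydrogenase genes Ldha and Ldhb, and the pyruvate dehydrogenase kinase gene Pdk1. They were taken as all probe sets whose single gene symbol in the platform annotation is one of these names, which gave 23 of 45037 probe sets and 10 of 18193 named genes. One further probe set lists a member among several symbols and was left out.

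Each array held retinal RNA pooled from 3 mice about 4 weeks old. The first group was 3 pools of prCAD mutant retinas, from prCAD -/- mice that lack photoreceptor cadherin, the product of Cdhr1, and the second was 3 pools of retinas of wild type 129 mice. No source used here names the strain of the mutant mice, so the lost gene and a difference in strain background cannot be told apart. The question put to the arrays is how retinal transcript levels are altered where photoreceptors are known to degenerate.

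The retina is known for turning much of its glucose into lactate even where oxygen is plentiful, and photoreceptors carry out most of that glycolysis. Glucose enters through facilitated transporters, hexokinase traps it as glucose 6-phosphate, and lactate dehydrogenase makes lactate from pyruvate. Lactate then crosses membranes through monocarboxylate transporters, which reach the cell surface together with the membrane glycoprotein basigin. Mice without basigin lose photoreceptor function early.

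Array medians spanned 4.74 to 4.79 in log2 units, and each array correlated with the others at a mean r of 0.978 to 0.988, lowest for wild type replicate 3. Cdhr1 read 3.94, 4.20 and 4.34 in the mutant pools, against 11.32, 11.36 and 10.98 in the wild type pools, so the labels fit the targeted gene. Arrays with the same replicate number deviated together from their group means, and differences within these 3 pairs are given below. All 8 measured rod markers lay above the overall median of 4.76. Summed levels of pigment epithelium, reactive glia and microglia markers were higher in every mutant pool than in any wild type pool. However, at their brightest probe sets 0 of these genes passed by limma on group alone. With the replicate number as a block 1 did, the reactive glia gene Cebpd (limma adjusted p = 0.0379). Their values are given with the results. In whole retina, fewer cells of a type and less RNA per cell cannot be told apart.

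The sequences just upstream of Slc16a1, Slc16a3 and Hk1 are shown because these were the members with the smallest p-values. They are the 250 bases before an annotated transcript start in the RefSeq promoter table of GRCm38.p6. Capitals mark ACGTG or its reverse complement CACGT, a core sequence that hypoxia-inducible factors bind. Other forms of that core were not searched for. The Slc16a3 window and the inner Hk1 window lie inside the annotated gene span.
Slc16a1, chr3:104638414-104638663, plus strand: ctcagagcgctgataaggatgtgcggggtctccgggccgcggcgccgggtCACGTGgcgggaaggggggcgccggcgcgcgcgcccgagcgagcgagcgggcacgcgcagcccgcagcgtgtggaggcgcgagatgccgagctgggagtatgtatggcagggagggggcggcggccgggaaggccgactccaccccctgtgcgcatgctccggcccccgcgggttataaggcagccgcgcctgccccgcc
Slc16a3, chr11:120948817-120949066, plus strand: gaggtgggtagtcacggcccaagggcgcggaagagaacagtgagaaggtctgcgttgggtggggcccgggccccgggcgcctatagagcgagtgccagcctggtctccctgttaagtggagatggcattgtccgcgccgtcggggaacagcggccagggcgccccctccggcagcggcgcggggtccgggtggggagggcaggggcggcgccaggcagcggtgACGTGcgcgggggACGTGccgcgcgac
Hk1, outer start, chr10:62379909-62380158, minus strand: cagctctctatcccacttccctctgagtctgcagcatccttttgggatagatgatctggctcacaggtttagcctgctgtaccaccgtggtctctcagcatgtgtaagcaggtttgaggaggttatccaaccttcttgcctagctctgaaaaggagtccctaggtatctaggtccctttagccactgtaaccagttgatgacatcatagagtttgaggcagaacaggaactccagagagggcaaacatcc
Hk1, inner start, chr10:62340422-62340671, minus strand: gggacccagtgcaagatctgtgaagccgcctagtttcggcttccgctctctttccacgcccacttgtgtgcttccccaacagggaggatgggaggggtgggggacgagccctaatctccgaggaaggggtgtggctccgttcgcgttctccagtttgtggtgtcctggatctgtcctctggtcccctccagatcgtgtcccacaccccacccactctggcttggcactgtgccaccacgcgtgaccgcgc

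The Slc16a1 window holds 1 CACGTG, which counts as 2 overlapping ACGTG matches, 1 on each strand, starting 200 and 199 bases before the transcript start. The Slc16a3 window holds 2 separate ACGTG matches, 27 and 14 bases before the start. Neither Hk1 window holds ACGTG or CACGT, and other forms of the core were not searched for there either. Windows were matched for 8 members, namely Slc16a1, Slc16a3, Slc2a1, Hk1, Hk2, Ldha, Ldhb and Pdk1. Of their 11 windows 5 hold ACGTG on either strand, 1 each for Slc16a1, Slc16a3, Slc2a1, Hk2 and Ldha, and 2 hold CACGTG, those of Slc16a1 and Ldha. Over all 32851 windows of the table the shares are 16.6% for ACGTG and 6.02% for CACGTG. These matches describe the letters in the windows only.

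No member probe set passed the test. Fitted with limma to all 45037 probe sets, 0 of 23 had a Benjamini-Hochberg adjusted p under 0.05, against 0.0111% of all probe sets. With the replicate number as a block 0 of 23 did, against 0.0333%. At an unadjusted p under 0.05 there were 3, against 3.02% of all probe sets. They were the brightest probe sets of Slc16a1 and Slc16a3 on the lower side, where 1.34% of all probe sets lay, and of Hk1 on the higher side, where 1.68% did. With the block there were 5, against 7.60%. The 3 on the lower side (3.83% of all probe sets) took in a dimmer Slc2a3 probe set, and the 2 on the higher side (3.77%) were both of Hk1. The groups did not overlap for 1 member probe set on the higher side, against 4.73% of all, and for 0 on the lower side, against 3.07%.

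The member probe sets at an unadjusted p under 0.05 in the limma fit on group alone changed with the arrays used. Leaving out mutant replicate 1 gave 1, that of Hk2, and leaving out mutant replicate 2 gave 1, that of Hk1. Leaving out mutant replicate 3 gave 4, those of Slc16a1, Slc16a3, Hk1 and a dimmer Slc2a3 probe set. Leaving out wild type replicate 1 gave 1, that of Slc16a3, and leaving out wild type replicate 2 gave 1, that of Slc16a1. Leaving out wild type replicate 3 gave 3, those of Hk1, a dimmer Slc2a1 and a dim Pdk1 probe set, and neither lactate transporter was among them. Of the 6 sets of 5 arrays, Slc16a1 and Slc16a3 were each past this mark in 2, and Hk1 in 3. The share of all probe sets past this mark is not given for these sets of arrays. A change in these counts can therefore not be read as a result about the members.

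Of the 23 probe sets 16 were lower in mutant retina, against 46.4% of all probe sets, and 6 were lower in all 3 pairs, against 13.3%. With the block, the 3 members at an unadjusted p under 0.05 among the 10 brightest probe sets stood against 7.44% of all genes, 4.88% on the higher and 2.57% on the lower side. At their brightest probe sets 8 of the 10 genes were lower in mutant retina, against 41.6% of all genes. In all 3 pairs 4 of them were lower, against 11.6% of all genes, and 1 was higher, against 20.0%. Their median difference was -0.06 on the log2 scale, against 0.02 over all genes. It was -0.16 without wild type replicate 3 and -0.034 without wild type replicate 2, and the medians of the 3 pairs, -0.02, -0.18 and -0.11, had an SD of 0.081, larger than the median itself.

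The lactate transporters showed the 2 largest differences among the members at their brightest probe sets. Slc16a1, which encodes MCT1, a carrier that takes up and releases lactate, read 9.13, 8.84 and 9.16 in the mutant pools, against 9.55, 9.14 and 9.67 in the wild type pools, on the log2 scale. The groups overlapped narrowly, since the highest mutant pool lay just above the lowest wild type pool, but the mutant pool was the lower one in each same-numbered pair. The difference was -0.41 (SE 0.16, 95% interval -0.80 to -0.02), or -24.7%, with a limma adjusted p of 0.9999. Within the pairs it was -0.42, -0.30 and -0.51, and with the replicate block its SE was 0.09 and its adjusted p 0.425. The other Slc16a1 probe set read 3.42 ± 0.15 in mutant and 3.31 ± 0.11 in wild type pools (SD, n = 3 each), below the overall median, and differed by 0.11 (SE 0.11), so the pair of probe sets disagree in sign.

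Slc16a3 encodes MCT4, the carrier known for lactate export from strongly glycolytic cells. Its only probe set read 6.32, 6.41 and 6.81 in the mutant pools, against 6.77, 6.98 and 7.33 in the wild type pools. The highest mutant value again passed the lowest wild type value narrowly, and replicate 3 was the highest pool of each group. The difference was -0.51 (SE 0.19, 95% interval -0.96 to -0.07), or -30.0%, with an adjusted p of 0.9999 by limma. Within the pairs it was -0.45, -0.58 and -0.52. With the replicate block the SE was 0.08 and the adjusted p 0.246, the smallest of any member in that fit.

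**Figure D1:**
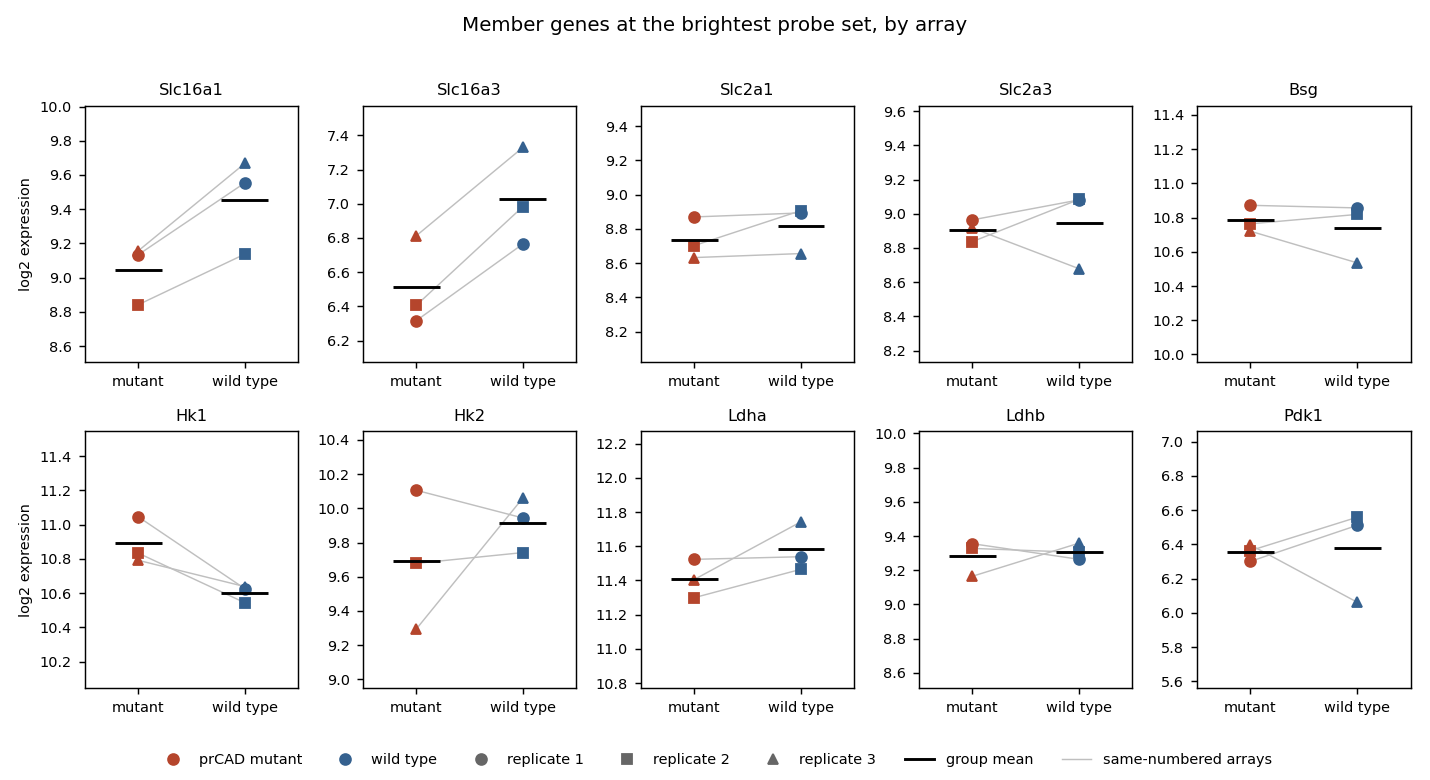
Log2 expression of the 10 member genes at the brightest probe set of each, in 3 mutant and 3 wild type pools. Each panel spans the same log2 range, points are arrays, black bars are group means and grey lines join arrays of the same replicate number. Slc16a1 and Slc16a3 are lower in the mutant pool of every pair, Hk1 is higher in every pair, and the mutant and wild type pools of Hk1 do not overlap.

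Bsg encodes basigin, the chaperone and partner of both carriers. It read 10.87, 10.76 and 10.72 in the mutant pools, against 10.86, 10.82 and 10.54 in the wild type pools. The groups overlapped, wild type replicate 3 was the lowest array, and the difference was 0.05 (SE 0.12, 95% interval -0.22 to 0.32). It was -0.05 without wild type replicate 3, so its sign rests on that array. Among the relatives and partners of basigin, Nptn, which encodes neuroplastin, differed by -0.15 (SE 0.17), and Nxnl1, which encodes the rod-derived cone viability factor that binds a retinal form of basigin, differed by 0.07 (SE 0.19).

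The glucose transporters gave small differences. Slc2a1 encodes GLUT1, the main glucose carrier of the retina, its pigment epithelium and its vessels. Its brightest probe set read 8.87, 8.70 and 8.63 in the mutant pools, against 8.89, 8.91 and 8.66 in the wild type pools. The difference was -0.08 (SE 0.11, 95% interval -0.35 to 0.18), and the groups overlapped. The other Slc2a1 probe sets differed by 0.00 (SE 0.15) and -0.16 (SE 0.12), the first of which turned sign when single arrays were left out.

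Slc2a3 encodes GLUT3, a high-affinity glucose carrier of neurons. At its brightest probe set it read 8.96, 8.84 and 8.92 in the mutant pools, against 9.08, 9.08 and 8.68 in the wild type pools. Wild type replicate 3 was the lowest of all 6 arrays, and the difference was -0.04 (SE 0.13, 95% interval -0.35 to 0.27). The 3 dimmer probe sets differed by 0.02 (SE 0.18), -0.37 (SE 0.24) and -0.36 (SE 0.21). For the probe set with the difference of -0.37 the first pair gave -0.94 and the third pair 0.06, and it was -0.63 without mutant replicate 3. The probe set with the difference of -0.36, which is the one at an unadjusted p under 0.05 with the block, gave -0.76, -0.26 and -0.06 within the pairs, and -0.13 without wild type replicate 1.

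Hk1 encodes hexokinase 1, the form found in most neurons, and it was the member with the clearest difference on the higher side. Its brightest probe set read 11.05, 10.83 and 10.79 in the mutant pools, against 10.63, 10.54 and 10.64 in the wild type pools. All mutant pools lay above all wild type pools, which held for 1 of the 10 members and, in this direction, for 5.89% of all genes. The difference was 0.29 (SE 0.10, 95% interval 0.05 to 0.53), 22.1% higher, with an adjusted p of 0.9999 by limma and 0.598 with the replicate block. The second Hk1 probe set read 10.26, 9.89 and 10.20 in the mutant pools, against 10.04, 9.61 and 10.07 in the wild type pools. Its groups overlapped, and it differed by 0.21 (SE 0.16), with 0.22, 0.28 and 0.13 within the pairs. Without wild type replicate 2 it differed by 0.06. Both probe sets were thus higher in 3 of 3 pairs, which held for 17.0% of all probe sets.

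Hk2 encodes hexokinase 2, a form found in photoreceptors and tied to their lactate production. It read 10.11, 9.68 and 9.29 in the mutant pools, against 9.94, 9.74 and 10.06 in the wild type pools. The mutant pools spread widely on both sides of the wild type pools, and the difference was -0.22 (SE 0.21, 95% interval -0.71 to 0.26). Within the pairs it was 0.16, -0.06 and -0.77, so the third pair carried it, and without both replicate 3 arrays the difference was 0.05.

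Ldha encodes the A subunit of lactate dehydrogenase, the form that favours lactate production. It read 11.52, 11.30 and 11.41 in the mutant pools, against 11.54, 11.47 and 11.74 in the wild type pools. The groups overlapped, the mutant pool was the lower in each pair, and the difference was -0.17 (SE 0.11, 95% interval -0.44 to 0.09). Within the pairs it was -0.02, -0.17 and -0.34, and without wild type replicate 3 it was -0.09. Ldhb encodes the B subunit, which predominates in tissues that burn lactate. Its brightest probe set read 9.36, 9.33 and 9.16 in the mutant pools, against 9.26, 9.30 and 9.36 in the wild type pools. The difference was -0.03 (SE 0.09, 95% interval -0.25 to 0.19), and the other 3 Ldhb probe sets differed by -0.10, -0.02 and -0.07.

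Pdk1 encodes a kinase that switches off pyruvate dehydrogenase and so keeps pyruvate out of mitochondria. At its brightest probe set it read 6.30, 6.36 and 6.40 in the mutant pools, against 6.51, 6.56 and 6.06 in the wild type pools. The mutant values lay between the high and the low wild type values, and the difference was -0.02 (SE 0.14, 95% interval -0.37 to 0.32). The first 2 pairs gave -0.21 and -0.20 and the third, with the low wild type replicate 3, gave 0.33. A dimmer Pdk1 probe set showed the same split more strongly, at 3.86, 3.93 and 3.65 in the mutant pools, against 4.69, 4.67 and 3.19 in the wild type pools. It lies below the overall median of 4.76, and its difference was -0.37 (SE 0.39), or -0.87 without wild type replicate 3. The remaining Pdk1 probe sets differed by -0.07 (SE 0.15) and 0.04 (SE 0.09).

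**Figure D2:**
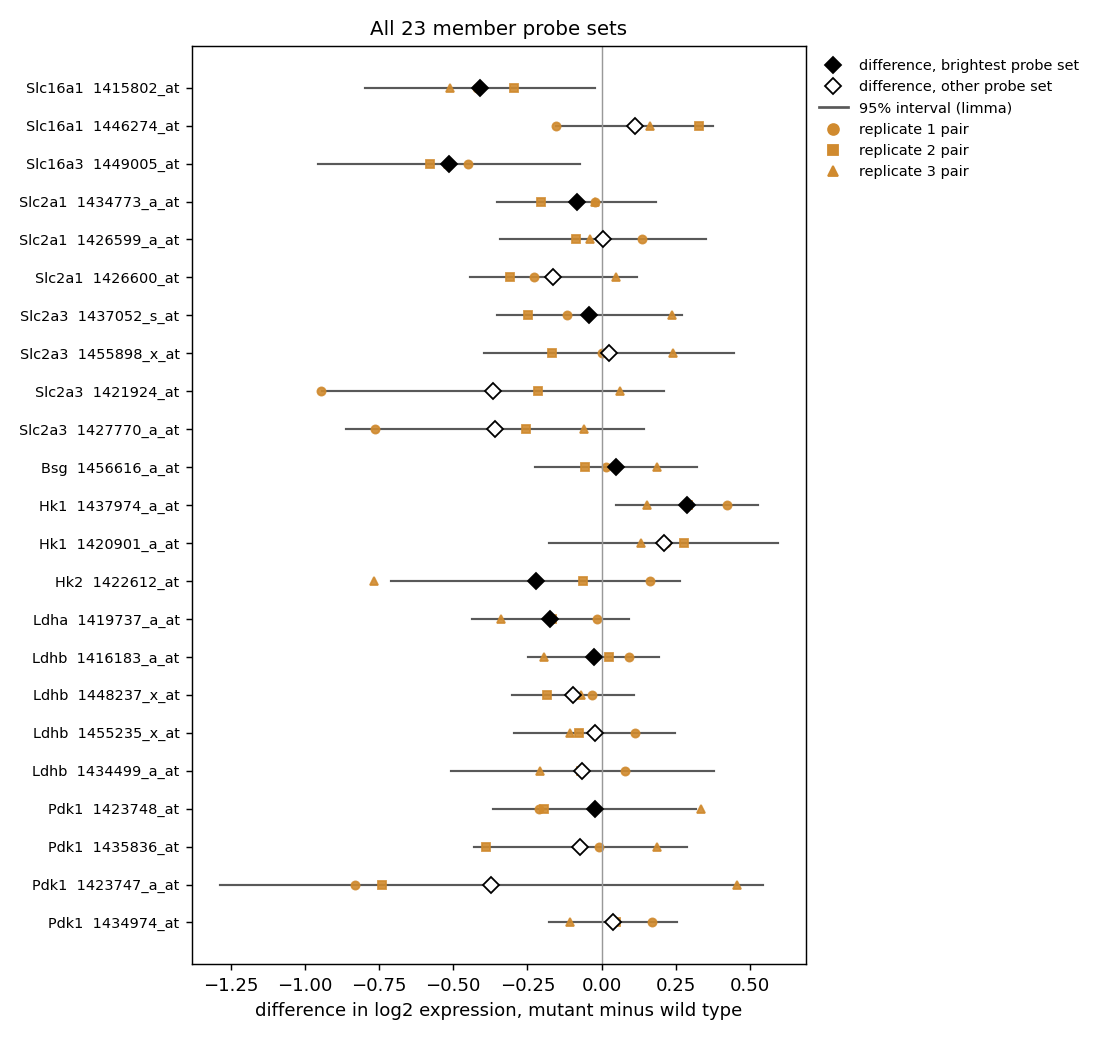
Differences in log2 expression, mutant minus wild type, of all 23 member probe sets. Diamonds are the limma differences, filled for the brightest probe set of a gene, lines are 95% intervals, and orange points are the differences within the 3 same-numbered pairs. The intervals of 3 probe sets leave out 0, those of the brightest Slc16a1, Slc16a3 and Hk1 probe sets.

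To see whether partner genes differed unequally, the log2 difference between member genes was taken within each array, for 6 gene pairs chosen after their values were seen. With 3 arrays against 3 the exact two-sided permutation test, which takes no account of the pairing, cannot go below 0.1, so no gene pair could reach 0.05 and the values are descriptions. Hk1 minus Hk2 was 0.94, 1.16 and 1.50 in the mutant pools, against 0.68, 0.80 and 0.58 in the wild type pools. These groups did not overlap, and their means differed by 0.51 (exact permutation p = 0.1, adjusted p = 0.36 over the 6 gene pairs). The gap was widest in replicate 3, where Hk2 read 9.29 in the mutant pool, its lowest of the 6 arrays. Slc16a1 minus Bsg averaged -1.74 ± 0.18 in mutant and -1.28 ± 0.41 in wild type pools (SD, n = 3 each), a difference of -0.46 (exact permutation p = 0.2, adjusted p = 0.36), and was lower in 3 of 3 pairs.

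Slc16a3 minus Bsg averaged -4.27 ± 0.33 in mutant and -3.71 ± 0.46 in wild type pools (SD, n = 3 each), a difference of -0.56 (exact permutation p = 0.2, adjusted p = 0.36), also lower in 3 of 3 pairs. Slc16a1 minus Slc2a1 differed by -0.33 and Ldha minus Ldhb by -0.15, each lower in 3 of 3 pairs with an exact permutation p of 0.3 and an adjusted p of 0.36. Slc2a1 minus Slc2a3 differed by -0.04 (exact permutation p = 0.6, adjusted p = 0.6), with 2 of 3 pairs on one side.

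**Figure D3:**
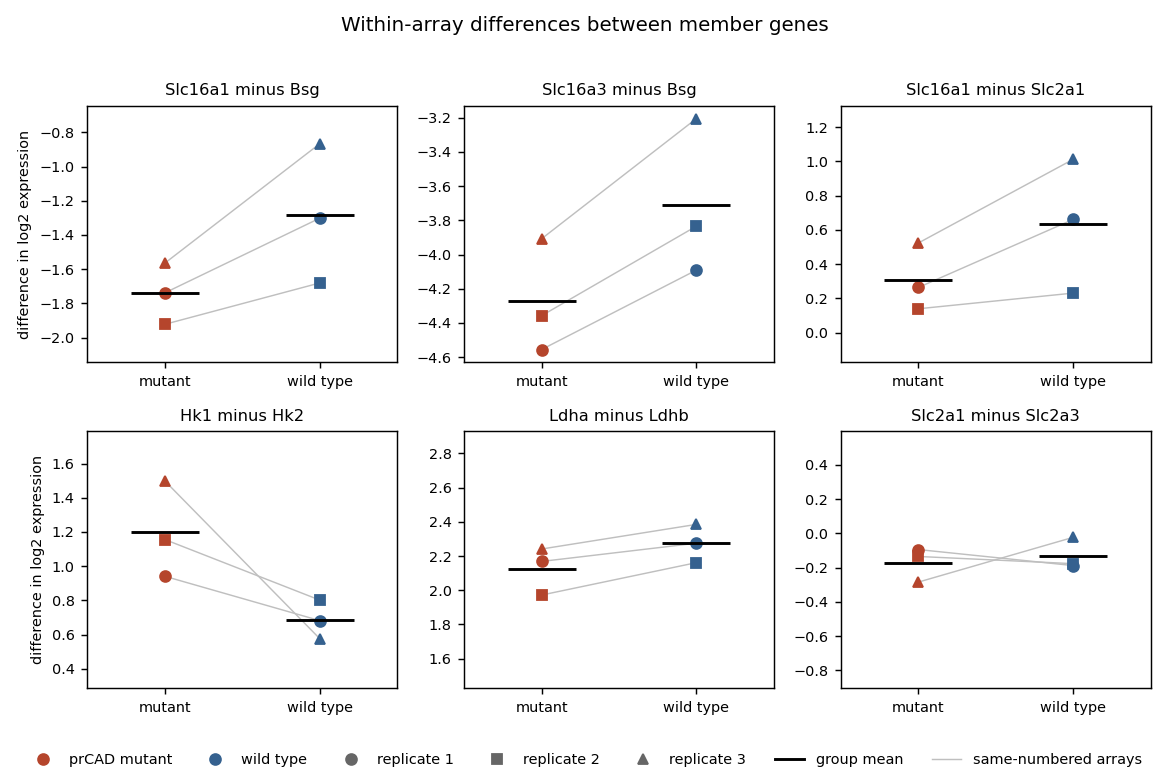
Log2 difference between member genes within each array, for 6 gene pairs, in 3 mutant and 3 wild type pools. Points are arrays, black bars are group means and grey lines join arrays of the same replicate number. The groups are apart for Hk1 minus Hk2 only, and both lactate transporters minus Bsg are lower in the mutant pool of every pair.

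Other genes whose levels followed the lactate transporters over the 6 arrays were sought among the 11807 genes above the overall median. Tsga10 (Pearson r = 0.988), Mal (r = 0.987) and Slfnl1 (r = 0.984) lay closest to Slc16a1, and 65 genes exceeded r = 0.9. Kti12 (r = 0.988), Jup (r = 0.977) and Senp7 (r = 0.970) lay closest to Slc16a3, where 65 genes exceeded 0.9 as well. These values describe 6 arrays that share 2 groups and 3 replicate numbers.

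Around the members, 92 of 103 genes of 6 further pathway lists had a named probe set, and 0 had an adjusted p under 0.05 by limma, with or without the replicate block, against 0.0165% and 0.0440% of all genes. At an unadjusted p under 0.05 there were 7 by limma, 4 higher and 3 lower, against 3.42% of all genes, 2.33% on the higher and 1.09% on the lower side. With the block there were 12, 7 higher and 5 lower, against the 7.44% of all genes given above. The groups did not overlap for 7 of the 92 genes on the higher side, against 5.89% of all genes. On the lower side this held for 3, against 2.88%. Over the 92 genes the median difference was -0.01.

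Other glycolytic enzymes had a median difference of -0.07 over 20 of 26 listed genes, with 8 higher, 12 lower and 0 past the test. Hkdc1, a hexokinase-like gene, differed by 0.32 (SE 0.13), and its groups did not overlap. Pgam1, the phosphoglycerate mutase of most tissues, differed by -0.30 (SE 0.14), and by -0.21, -0.32 and -0.36 within the pairs. Pfkfb3 and Pfkfb2, which set the level of the activator fructose 2,6-bisphosphate, differed by -0.24 (SE 0.13) and -0.17 (SE 0.11).

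Other monocarboxylate and glucose transporters had a median difference of 0.04 over 22 of 23 listed genes, with 13 higher, 9 lower and 0 past the test, and 11 of them lay below the overall median. Slc16a8 encodes MCT3, the lactate carrier of the basal face of the pigment epithelium. It read 6.38, 6.73 and 6.35 in the mutant pools, against 6.07, 6.08 and 5.71 in the wild type pools. The groups did not overlap, in the direction opposite to Slc16a1 and Slc16a3, and the difference was 0.53 (SE 0.15, adjusted p = 0.9999 by limma, 0.359 with the block). A second Slc16a8 probe set, at a mean of 2.76 and so below the overall median, differed by 0.23 (SE 0.16) with groups that overlapped. The 9 other pigment epithelium markers were all higher in mutant pools, Best1 by only 0.0058 and Lrat by 0.13, and 0 of them passed by limma, their summed level ranging from 10.72 to 11.16 in mutant and from 8.80 to 10.10 in wild type pools on the log2 scale, and their part in the Slc16a8 difference was not tested. Slc16a6 differed by -0.30 (SE 0.17), the fructose carrier gene Slc2a5 by 0.14 (SE 0.10) and the sodium-coupled glucose carrier gene Slc5a1 by 0.13 (SE 0.10).

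Among partners of the transporters 5 of 6 listed genes were measured, 2 higher and 3 lower, with 0 past the test and a median of -0.04. Besides Nptn and Nxnl1 above, Nxnl2 differed by -0.22 (SE 0.14), and Txnip, whose product limits glucose uptake, by 0.11 (SE 0.16). Pyruvate entry genes had a median of -0.01 over 15 of 16 listed genes, with 6 higher, 9 lower and 0 past the test. Pdp1, the phosphatase that reverses the Pdk enzymes, gave -0.31 (SE 0.13) at the brighter of its probe sets and 0.04 at the other. The kinase genes Pdk3 and Pdk4 differed by 0.20 (SE 0.10) and 0.18 (SE 0.10) with groups that did not overlap, Pdk4 lying far below the overall median, while Pdk2 differed by -0.12 (SE 0.13).

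Pentose phosphate and glycogen genes had a median of 0.00 over 13 of 14 listed genes, with 7 higher, 6 lower and 0 past the test. The liver and muscle forms of glycogen phosphorylase, Pygl and Pygm, differed by 0.57 (SE 0.26) and 0.33 (SE 0.20), Pygl mainly in the third pair at 1.37, against 0.04 and 0.30 in the other pairs. Pgm1, a phosphoglucomutase, differed by -0.23 (SE 0.14) and Gys1, a glycogen synthase, by -0.09 (SE 0.10).

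**Figure D4:**
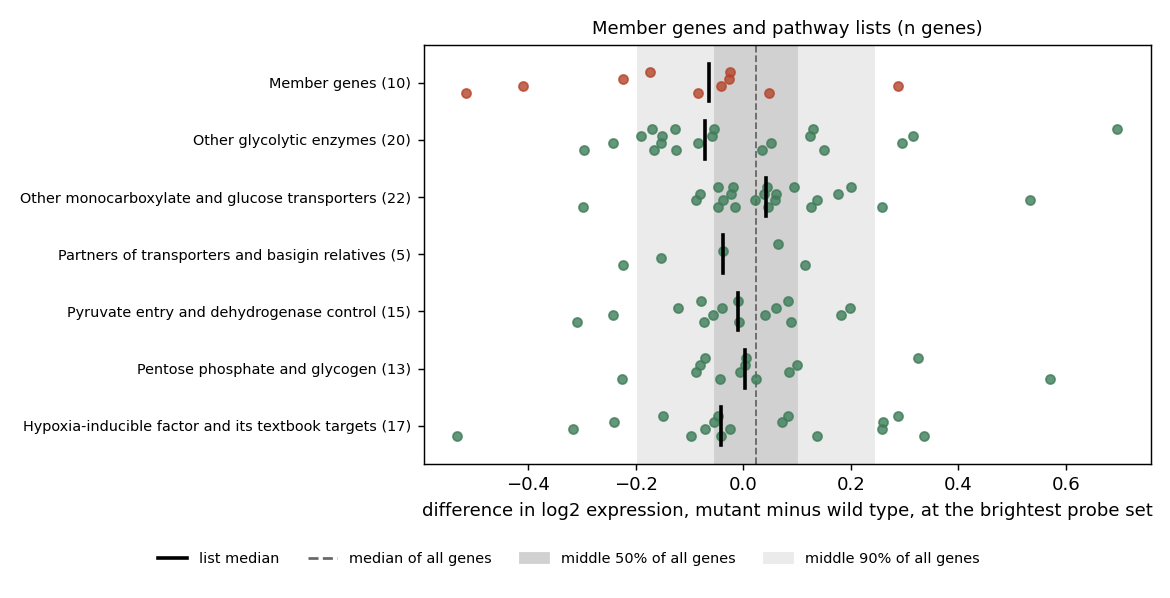
Differences in log2 expression, mutant minus wild type, at the brightest probe set of each gene, for the 10 member genes and 6 pathway lists. Points are genes, black bars are list medians, and the grey bands run from the 25th to the 75th and from the 5th to the 95th percentile of all 18193 genes, whose median is 0.02. The list medians lie between -0.07 and 0.04.

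Hypoxia-inducible factors are known to raise Slc2a1, Ldha, Pdk1, Slc16a3 and Hk2. A list of the factor genes, their regulators and other targets was read beside these members. Of 18 listed genes 17 were measured, 7 higher and 10 lower, with 0 past the test and a median of -0.04. Bnip3, a hypoxia target that promotes removal of mitochondria, read 9.24, 9.25 and 9.17 in the mutant pools, against 9.80, 9.83 and 9.61 in the wild type pools. All mutant pools lay below all wild type pools, and the difference was -0.53 (SE 0.10), or -30.9%, with a limma adjusted p of 0.589, and 0.237 with the replicate block. Kdm3a, a histone demethylase, differed by -0.24 (SE 0.10) without overlap.

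On the higher side, groups did not overlap for Epas1, Adm and Vhl at their brightest probe sets, and Vhl, outside the rule for named genes, was added after its values were seen. Vhl, which marks hypoxia-inducible factors for removal, differed by 0.34 (SE 0.16), and any other Vhl probe sets were not read. Epas1, which encodes a hypoxia-inducible factor subunit, differed by 0.29 (SE 0.11), and Adm, which encodes adrenomedullin, by 0.26 (SE 0.10). Their second probe sets differed the other way, by -0.19 for Epas1 and by -0.17 for Adm, and both Adm probe sets lay below the overall median. These were 3 of the 17 on the higher side, against 5.89% of all genes, and Bnip3 and Kdm3a were 2 on the lower side, against 2.88%.

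**Figure D5:**
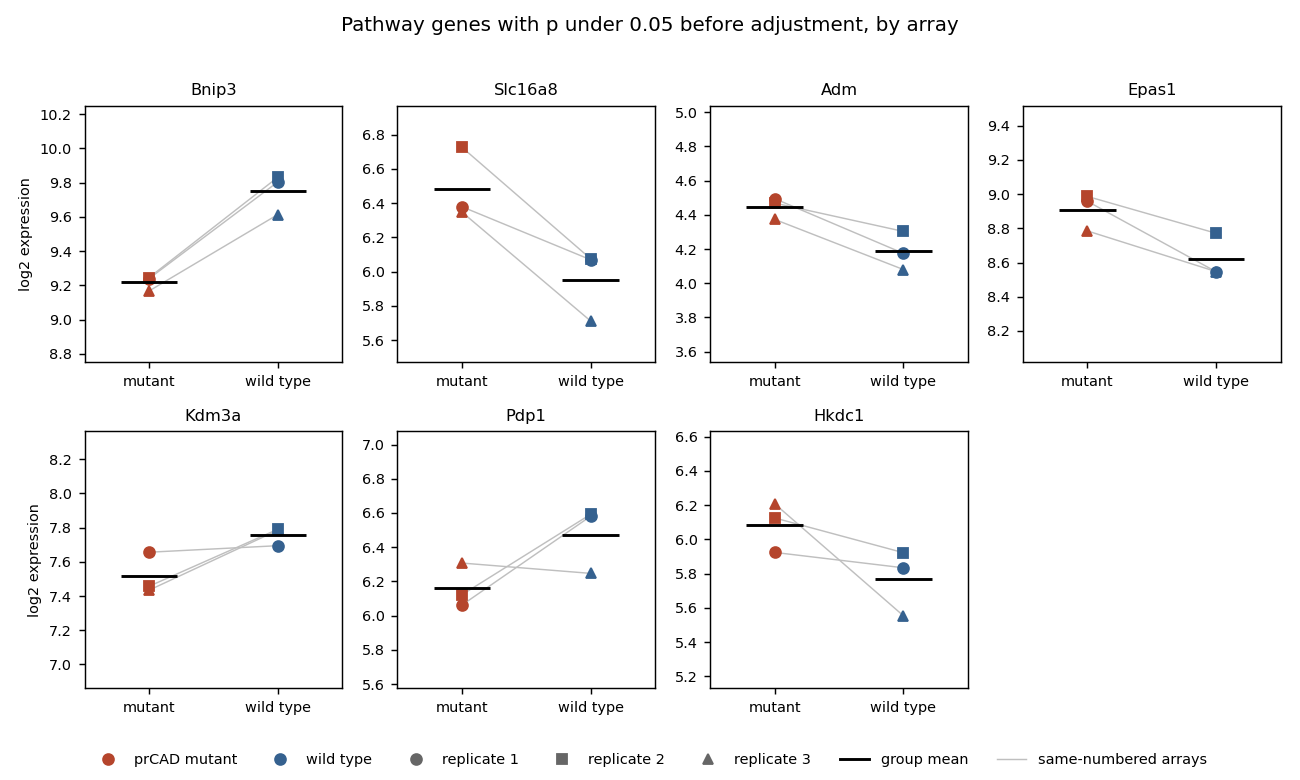
Log2 expression of the 7 pathway genes with an unadjusted p under 0.05, in 3 mutant and 3 wild type pools. Points are arrays, black bars are group means and grey lines join arrays of the same replicate number. Bnip3 and Kdm3a are lower in all 3 mutant pools, Slc16a8, Adm, Epas1 and Hkdc1 are higher in all 3, and the Pdp1 groups overlap.

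Markers of other cell types were read in the same arrays, with 58.4% of all genes higher and 41.6% lower in mutant pools. At the brightest probe set of each gene, 0 markers of any list passed by limma over all probe sets, and with the replicate block 1 did, Cebpd of the reactive glia list (adjusted p = 0.0379). The summed level of 8 of 10 listed rod markers ranged from 14.83 to 14.98 in mutant and from 14.80 to 15.02 in wild type pools. However, 7 of the 8 genes were lower in mutant pools, and the median difference over the 8 was -0.19. The sums add unlogged values, so bright genes weigh most. Sag, the brightest rod marker, was the 1 higher gene, by 0.26, and a sum without it was not taken. The 8 Müller glia markers, of which 5 were higher, ranged from 12.69 to 12.83 in mutant and from 12.45 to 12.78 in wild type pools. The 9 markers of vessel endothelium and pericytes, of which 5 were higher, ranged from 9.57 to 10.04 in mutant and from 9.67 to 9.90 in wild type pools.

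The summed rod level, in which Sag weighs most, and the summed Müller glia and vessel levels thus overlapped between the groups. Reactive glia markers did not, at 9.38 to 9.85 in mutant and 7.69 to 8.62 in wild type pools, with 5 of 5 higher. The 6 microglia markers, all higher and again without overlap of their summed level, ranged from 8.35 to 8.55 in mutant and from 8.10 to 8.21 in wild type pools. The 6 ganglion cell markers, all lower, ranged from 10.51 to 10.81 in mutant and from 10.74 to 11.22 in wild type pools. Cone markers, 4 of 8 higher, ranged from 11.65 to 11.91 in mutant and from 11.68 to 12.03 in wild type pools.

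Red blood cell markers, 3 of 4 measured genes higher, ranged from 6.55 to 6.61 in mutant and from 6.35 to 6.63 in wild type pools. Lens markers, 7 of 7 higher, ranged from 14.38 to 14.91 in mutant and from 13.49 to 14.74 in wild type pools, lowest in wild type replicate 3. The part of these cell types in the differences of the members was not tested.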

How the data were processed

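Retinal RNA was purified with Trizol and RNeasy columns, labelled with biotin and hybridised to single-colour Affymetrix arrays, per the labels' protocols. The authors deposited log2 expression values, and the submitters' processing notes name RMA without a version. RMA makes the arrays share a distribution, so a difference in total signal between arrays cannot be seen here. Of 45101 probe sets 64 manufacturer controls were left out. In the platform annotation 34945 probe sets carry 1 gene symbol, 932 several and 9160 none.

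Groups and replicate numbers follow the sample titles. All 45037 remaining probe sets entered limma 3.58.1 (lmFit, then eBayes, in R 4.3.3) with group as the only term. Adjustment was by Benjamini-Hochberg, the threshold was 0.05, and the script was tested on simulated data. Same-numbered arrays had deviations from their group means that correlated at 0.477, 0.469 and 0.563. All exceed 0.1, so differences within same-numbered pairs and a fit with the replicate block are also given. This pairing rests on the data and not on the labels. Intervals and p-values given without the block take no account of it. Where 1 value per gene was needed, the brightest probe set by mean level was used. All member probe sets are reported, and of each pathway list the 4 genes with the smallest p. The members and lists were chosen with earlier results of these data known. Alternative settings covered the replicate block, normalization, centring, dim probe sets, the variance model, array weights, probe set choice, an unadjusted threshold and omitted arrays. The number of arrays limits the precision, and p-values measure the spread between pools. Upstream windows come from RefSeq GRCm38.p6, while no source used here states a build for the arrays. matplotlib 3.10.9 drew the figures.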

Additional observations from a re-analysis of the deposited data

How the results depend on the processing

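Under the 14 alternative settings run, which include the replicate block and leaving out each array, 0 member probe sets and 0 pathway genes passed the adjusted threshold. The pairing of arrays by replicate number therefore changed no call of a member or pathway gene at the adjusted threshold. The block left the median difference over the member genes at -0.06. At an unadjusted p under 0.05 there were 3 member probe sets and 7 pathway genes. That member count was 1 with quantile normalization, 7 with array weights and 5 without both replicate 3 arrays, a setting chosen after seeing the data. The share of all probe sets at this mark is not given for these settings, so these counts cannot be compared with each other. The median ran from -0.16 without wild type replicate 3 to -0.034 without wild type replicate 2. Of 315 recomputed probe set differences 287 kept their direction and side of the threshold, and 28 turned sign.

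Over the settings, Slc16a1 at its brightest probe set ran from -0.57 to -0.30, Slc16a3 from -0.67 to -0.36 and Hk1 at its brightest from 0.21 to 0.36, none turning sign. With each gene's probe sets ordered by level from the brightest, quantile normalization turned the second of Slc2a1 (-6.26e-04). Array weights turned the second of Slc2a3 (-0.11), Bsg (-0.024) and the brightest of Ldhb (0.024). When single arrays were left out, some probe sets turned sign in part of the fits, and their ranges over all of these fits follow. The differences ran from -0.094 to 0.12 for the second of Slc2a1 and from -0.052 to 0.11 for Bsg. For Slc2a3 they ran from -0.18 to 0.026 for the brightest and -0.16 to 0.14 for the second. They ran from -0.063 to 0.032 for the brightest, -0.11 to 0.064 for the third and -0.23 to 0.10 for the fourth of Ldhb, and from -0.18 to 0.067 for the brightest and -0.21 to 0.011 for the second of Pdk1. Without both replicate 3 arrays the second of Slc2a3 (-0.084), Bsg (-0.020), Hk2 (0.050) and the brightest (0.057), the third (0.018) and the fourth (0.0052) of Ldhb turned. The cause was not tested. Background was not measured here, and 3 member probe sets, 1 of Slc16a1 and 2 of Pdk1, lie below the overall median.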
